A study of Homo sapiens with 9 samples.

Results

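The 37 interferon-stimulated genes described here were chosen by symbol: each is a listed member whose name equals the gene symbol of 1 line in a raw count table, and all 37 were found among 60683 listed genes. They were followed in Hep3B, an established human liver cancer cell line, by RNA sequencing of 9 libraries in 3 groups of 3. The groups were cells given vehicle (DMSO) at 20% O2, cells given vehicle at 1% O2, and cells given 32-134D at 1% O2, each for 24 hours, and all 3 groups were the same unmodified line. 32-134D is a small molecule that the study developed as an inhibitor of the hypoxia-inducible factors (HIFs), the transcription factors that cells stabilize when O2 falls. The labels call the 3 libraries of a group biological replicates of 1 cell line and give no dose, so p-values measure the spread between cultures of that line only. The labels name no added interferon or virus.

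Interferons are secreted proteins that cells release after their sensors detect viral RNA or DNA. Type I and type III interferons bind their receptors and activate the kinases JAK1 and TYK2, which phosphorylate STAT2. It joins IRF9 in a complex that binds the interferon-stimulated response element in promoters and switches on genes whose products detect viral nucleic acid, block entry, degrade RNA or tag proteins. Liver cells carry the same pathway, and in resting cells most of its genes are weakly expressed.

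Of the 37 members, 31 had 10 or more counts summed over the 9 libraries and were tested with the 22672 genes that passed this filter. The other 6 were close to silent: DHX58 had 9 counts in all, TRIM22 8, IFI44 7, OAS2 6, IFI44L 5 and XAF1 2, with no more than 6 counts in any library. Only 19 of the tested members reached a mean normalized count of 50 in their highest group. A gene was called higher or lower where edgeR's quasi-likelihood test, with Benjamini-Hochberg adjustment over all 22672 genes, gave a false discovery rate (FDR) below 0.05 and the fold change was above 1.5. Levels are given as counts-per-million (CPM), scaled between libraries by the trimmed mean of M values (TMM).

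The libraries held between 6013980 counts (vehicle at 20% O2, replicate 2) and 40549699 counts (vehicle at 1% O2, replicate 1), and the members took 3054 to 16450 counts of each. Replicate 3 of 32-134D stood apart from its group. Its chi-square per degree of freedom against replicates 1 and 2 was 36.4 and 32.5, where that between replicates 1 and 2 was 2.0 and those within the vehicle groups ran from 1.62 to 12. The cells carried the liver line's markers. The 9 hepatocyte genes summed to 18309 to 19763 CPM in vehicle at 20% O2 and 13416 to 16747 in vehicle at 1% O2. With 32-134D they summed to 18088, 17807 and 11741 CPM in replicates 1 to 3, so replicate 3 was lowest here. Between the vehicle groups the largest difference in CPM was that of APOB, at group means of 4486, 405 and 3519 CPM in the order of the groups. ALB, the largest part, was at 9283, 9535 and 8114 CPM. Of the list, only APOB and AFP were called lower in hypoxia. Of 10 immune markers, 4 (CD3E, MS4A1, CLEC4C and NKG7) were at 0 in every library and PTPRC reached 3 counts at most. The immune list summed to 28.2 to 34.9 CPM in vehicle at 20% O2, 10.6 to 13 in vehicle at 1% O2 and 15.2 to 24.8 in 32-134D at 1% O2, most of it LYZ and CD14. The 5 fibroblast markers summed to 35.2 to 38.0, 16.9 to 18.1 and 34.5 to 43.0 CPM in the same order. The largest part was PDGFRB, at group means of 27.2, 10.1 and 22.0 CPM. COL1A1 was at 6.65, 3.62 and 7.05 CPM, and COL3A1 and DCN had no more than 2 counts. LUM, at 2.43, 3.76 and 8.39 CPM, was called higher with 32-134D against both vehicle groups. The 4 endothelial markers summed to 0.639 to 1.00, 0.0943 to 0.380 and 0.505 to 1.28 CPM. This was PECAM1 apart from 1 count of CDH5, with VWF and KDR at 0 in every library. These sums moved with the groups, and their part in the results was not tested. In such bulk libraries fewer cells with a transcript and less of it per cell cannot be told apart.

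What the members share in their promoters was read from RefSeq promoters on GRCh38.p14, from 250 bases before to 50 bases after the start, which were found for 27 of the 37. DDX58, DHX58, IRF7, IFIT2, IFITM2, MX2, OAS2, OASL, USP18 and TRIM22 had none, so their promoters were not searched. The interferon-stimulated response element, searched on both strands as GAAANNGAAA, occurred in 17 of these 27 (63.0%) and in 996 of 27305 promoters in all (3.65%). The gamma-activated site TTCNNNGAA, an element of genes that answer interferon gamma, occurred in 7 (25.9%, against 7.88% of all promoters). ACGTG, the core of the hypoxia response element that HIFs bind, occurred in 6 (22.2%, against 21.6%): IRF9, ISG15, HERC5, ISG20, SAMHD1 and IFI6. A match is only the presence of these letters, and the 50 bases after the start were searched too.

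The promoter stretches that follow show the 4 members with the most matches to the response element lying wholly before the start, ties taken in the order of the member list, and OAS3 and ISG20, which were added after their values were seen because they moved in opposite directions. Each is written 5′ to 3′ on the strand of its gene, and the capitals mark the matches, which read as the reverse complement of the motif where they lie on the other strand. IFIT5 has 3 matches of which 1 spans the start. In IFIH1 and HERC5 the first run of capitals holds 2 overlapping matches. The stretches are chr2:162318685-162318863 on the minus strand for IFIH1, chr4:88456974-88457093 on the plus strand for HERC5, chr1:27672249-27672368 on the minus strand for IFI6, chr10:89392426-89392545 on the plus strand for IFIT1, chr12:112938232-112938351 on the plus strand for OAS3 and chr15:88638937-88638966 on the plus strand for ISG20. The 30 bases of ISG20 lie in an exon of a longer annotated transcript of that gene, 19 bases of the IFIH1 stretch also lie in an annotated exon, in which its last match partly falls, and OAS3 has 1 further match nearer its start.
IFIH1: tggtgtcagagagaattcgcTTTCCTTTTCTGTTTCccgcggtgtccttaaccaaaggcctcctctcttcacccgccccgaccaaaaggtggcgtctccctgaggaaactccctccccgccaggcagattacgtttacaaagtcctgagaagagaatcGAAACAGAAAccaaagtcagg
HERC5: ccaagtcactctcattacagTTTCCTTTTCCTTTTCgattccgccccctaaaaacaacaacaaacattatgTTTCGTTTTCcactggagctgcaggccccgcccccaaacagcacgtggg
IFI6: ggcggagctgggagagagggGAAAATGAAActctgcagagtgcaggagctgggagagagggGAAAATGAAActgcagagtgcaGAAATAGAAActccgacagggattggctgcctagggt
IFIT1: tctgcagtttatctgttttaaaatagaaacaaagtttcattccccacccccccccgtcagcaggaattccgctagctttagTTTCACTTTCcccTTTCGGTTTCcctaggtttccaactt
OAS3: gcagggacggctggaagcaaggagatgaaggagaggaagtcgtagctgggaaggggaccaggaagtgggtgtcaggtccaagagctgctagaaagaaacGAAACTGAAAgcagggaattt
ISG20: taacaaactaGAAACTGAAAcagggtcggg
Of these members HERC5 and ISG20 were called higher in hypoxia, OAS3 was called lower, and IFIH1, IFI6 and IFIT1 were not called, as detailed with their values.

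**Figure D1:**
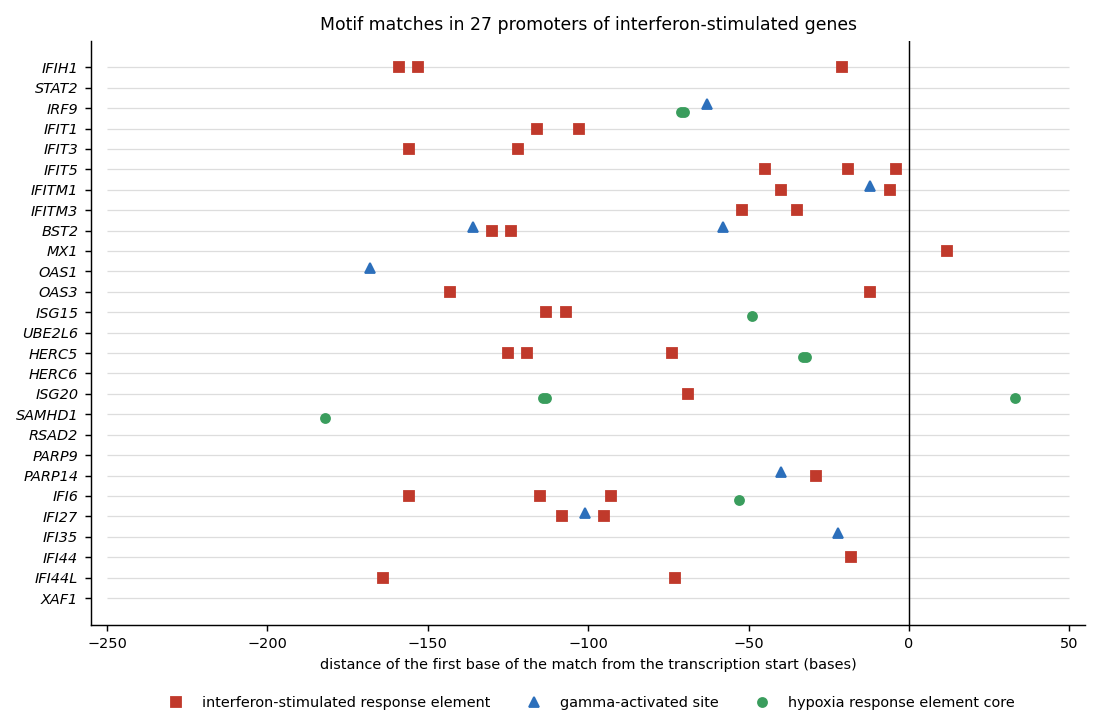
Position of motif matches in the promoters of 27 interferon-stimulated genes, with the distance of the first base of each match from the transcription start in bases on the horizontal axis and 1 line per gene. Squares mark the interferon-stimulated response element (17 genes), triangles the gamma-activated site (7 genes) and circles the core of the hypoxia response element (6 genes); STAT2, UBE2L6, HERC6, RSAD2, PARP9 and XAF1 hold none of the 3.

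Levels differed widely between members. Per kilobase of exon, in vehicle at 20% O2, the highest was IFITM3, a membrane protein that blocks virus fusion, at 141 ± 13.9 CPM per kb (SD, n = 3). ISG15 followed at 27.8 ± 4.88 and IFITM2 at 20.5 ± 1.57 CPM per kb, and their libraries did not overlap. STAT2 was at 9.35 ± 1.26 and IFI6 at 7.55 ± 1.64 CPM per kb, with overlapping libraries. IFI35 (5.18 ± 0.485), UBE2L6 (4.97 ± 0.664) and DDX58 (4.30 ± 0.259) came next in CPM per kb, and USP18 (3.14), IFIH1 (3.06) and IRF7 (2.61) after them. Lower in the order were IFIT3 at 0.289, MX1 at 0.278, OAS1 at 0.111, IFIT1 at 0.0867 and RSAD2 at 0.0225 CPM per kb, named as examples. In vehicle at 1% O2 IRF7 stood at 8.84 CPM per kb, above STAT2 at 3.04, and in 32-134D at 1% O2 STAT2 stood at 7.42 and IRF7 at 3.43.

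**Figure D2:**
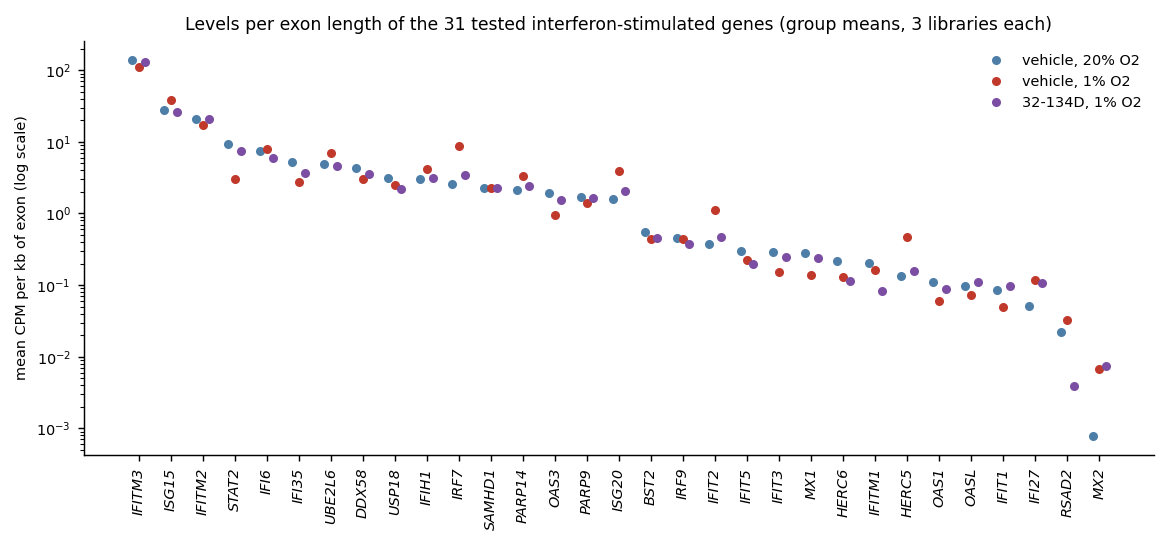
Mean level of the 31 tested interferon-stimulated genes in CPM per kilobase of exon on a log axis, ordered by vehicle at 20% O2; each point is the mean of 3 libraries of 1 group, with no error shown. IFITM3 lies highest in all 3 groups, and IRF7, ISG20, IFIT2 and HERC5 lie higher in vehicle at 1% O2 than in the other groups while STAT2 and OAS3 lie lower.

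The first comparison asked what 1% O2 did to these genes in vehicle-treated cells. The members split: 5 were called higher (IRF7, IFIT2, HERC5, ISG20 and PARP14) and 4 lower (STAT2, MX1, OAS3 and IFI35) of the 31 tested. Over all genes tested, 19.5% were called higher and 20.3% lower, beside 16.1% and 12.9% of the members. All of these calls fell among the 19 members with a mean normalized count of 50 or more in their highest group, at 26.3% and 21.1%. No share of all genes was computed at that minimum, so these shares cannot be placed above or below a background. A further 6 passed the FDR with a fold change of 1.5 or less (DDX58, IFITM2 and IFITM3 on the lower side, IFIH1, ISG15 and UBE2L6 on the higher side), where 13.8% of all genes did. The median log2 fold change of the members was -0.23, beside 0.00100 over all genes. Among the 19 members with a mean normalized count of 50 or more it was -0.014, with 9 values above 0 and 10 below. With libraries scaled by their total counts alone, which moved the median of all genes to -0.21, the split was 4 higher and 8 lower.

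The second comparison asked what 32-134D did at 1% O2, against vehicle at 1% O2. Here 3 members were called higher (STAT2, MX1 and OAS3) and 6 lower (IRF7, IFIT2, UBE2L6, HERC5, ISG20 and RSAD2). The background was 16.2% higher and 13.7% lower, beside 9.68% and 19.4% of the members. Among the 19 members with a mean normalized count of 50 or more the shares were 15.8% and 26.3%, again with no share of all genes at that minimum. Another 5 passed the FDR only, IFIH1, ISG15 and PARP14 on the lower side and IFITM2 and IFI35 on the higher side, against 17.6% of all genes. The median log2 fold change was -0.07, beside -0.01 over all genes, and the split with total-count scaling, which moved the median of all genes to 0.17, was 5 higher and 4 lower. Without replicate 3 of 32-134D, the library that stood furthest from its group, 3 members were called higher and 5 lower and the median was 0.10.

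The remaining comparison set 32-134D at 1% O2 against vehicle at 20% O2. By edgeR's quasi-likelihood test 0 members were called higher and 0 lower, where the background was 3.0% and 0.516%. DESeq2 also called 0 in each direction. At an unadjusted p below 0.05, 8 of the 31 differed, ISG20 and IRF7 on the higher side and DDX58, STAT2, HERC6, USP18, RSAD2 and IFI35 on the lower side. IFI35 alone passed the FDR, with a fold change under 1.5, where 6.73% of all genes did. The median size of the members' log2 fold changes, regardless of sign, was 0.33, beside 0.27 over all genes; it was 0.58 beside 0.72 in the first comparison and 0.46 beside 0.55 in the second. The first and second comparisons share the vehicle libraries at 1% O2, and the first and the last share those at 20% O2, so a member's values are set side by side below and the comparisons are not independent of each other.

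**Figure D3:**
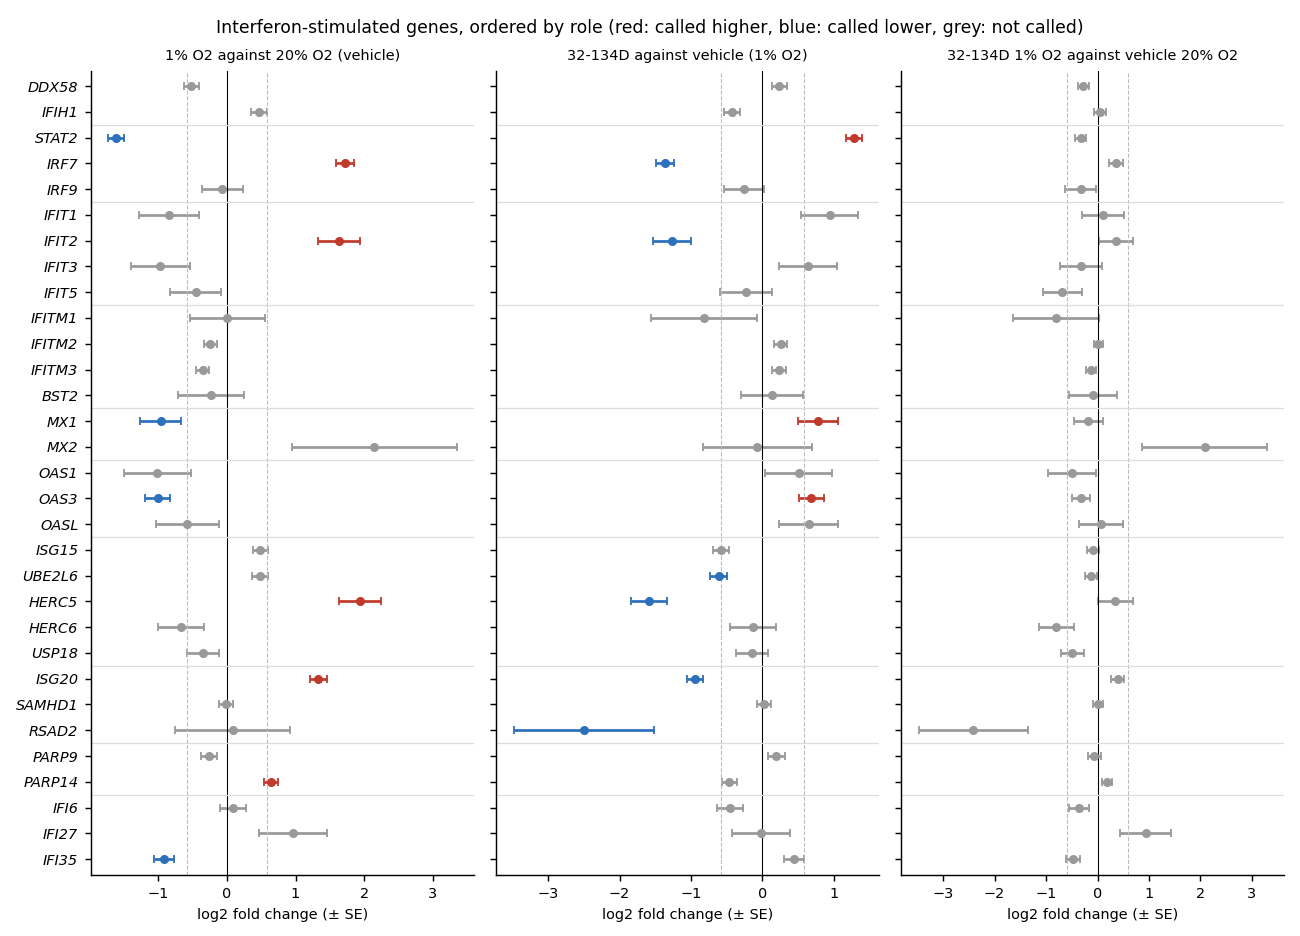
Log2 fold change with its standard error for the 31 tested interferon-stimulated genes, in 3 panels for the 3 comparisons, ordered by role; dashed lines mark a fold change of 1.5, red points were called higher, blue lower, and grey not called. The first panel holds 5 red and 4 blue points, the second 3 red and 6 blue, and the third none.

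The sensors DDX58 (RIG-I) and IFIH1 (MDA5) bind viral double-stranded RNA and start the signal that leads to interferon. DDX58 (ENSG00000107201, chr9:32455705-32526324; all member positions are on GRCh38) was at 17.7, 19.9 and 18.5 CPM in replicates 1 to 3 of vehicle at 20% O2, at 13.7, 12.3 and 12.9 in vehicle at 1% O2, and at 14.9, 17.0 and 14.1 in 32-134D at 1% O2. The vehicle libraries at 1% O2 lay below all others. The log2 fold change in hypoxia was -0.52 ± 0.11 (SE, FDR 0.000813), a fold under the threshold of 1.5 that passed it without replicate 1 at 20% O2 (-0.61, FDR 0.00115), and the value for 32-134D against vehicle was 0.24 ± 0.10 (FDR 0.077). IFIH1 (ENSG00000115267, chr2:162267079-162318703) was at 15.5, 15.9 and 15.5 CPM in vehicle at 20% O2, 23.6, 21.2 and 19.6 in vehicle at 1% O2, and 18, 15.7 and 14.2 with 32-134D. Its highest values were the 3 vehicle libraries at 1% O2, on the other side from DDX58. The log2 fold changes were 0.46 ± 0.11 in hypoxia (FDR 0.00288) and -0.42 ± 0.11 with 32-134D (FDR 0.00472), both under the fold threshold. The 2 sensors thus had opposite signs in each of these comparisons. The 32-134D value of DDX58 was not called, however, and ran from -0.03 to 0.42 over the alternative settings.

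STAT2 and IRF7 changed in opposite directions. STAT2 (ENSG00000170581, chr12:56341597-56360155), the partner of IRF9 in the complex that type I and type III interferons activate, was at 48.5, 63.3 and 59.7 CPM in vehicle at 20% O2, 21.1, 16.6 and 17.9 in vehicle at 1% O2, and 43.8, 47.1 and 45.2 in 32-134D at 1% O2. All 3 groups were apart, with the hypoxic vehicle libraries lowest and the 32-134D libraries just under those at 20% O2. STAT2 fell by 1.61 on the log2 scale in hypoxia (SE 0.11, FDR 1.6e-08) and was higher by 1.28 ± 0.11 with 32-134D (FDR 3.12e-07), and the value for 32-134D against vehicle at 20% O2 was -0.33 ± 0.11 (FDR 0.0689). Its promoter held none of the 3 motifs.

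IRF7 (ENSG00000185507, chr11:612553-615999), the transcription factor that amplifies type I interferon genes, went the other way. Its levels were 7.17, 5.97 and 7.48 CPM in vehicle at 20% O2, 21.4, 23.0 and 25.4 in vehicle at 1% O2, and 8.34, 10.3 and 8.46 with 32-134D. The hypoxic vehicle libraries stood far above the rest. The log2 fold change was 1.72 ± 0.13 in hypoxia (FDR 3.91e-08), -1.36 ± 0.12 with 32-134D (FDR 4.27e-07) and 0.36 ± 0.13 for 32-134D against vehicle at 20% O2 (FDR 0.109). IRF9 (ENSG00000213928, chr14:24161053-24166565), the DNA-binding partner of STAT2, was weakly expressed at 2.65, 0.942 and 1.52, then 2.15, 1.37 and 1.49, then 1.47, 1.31 and 1.46 CPM in the same order. The groups overlapped, with log2 values of -0.07 ± 0.30 in hypoxia (FDR 0.871) and -0.26 ± 0.28 with 32-134D (FDR 0.485). IRF9 shares 48.4% of its exon bases with the overlapping gene AL136295.5 on the same strand, so its counts are uncertain.

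The ratio of IRF7 to STAT2 counts within a library does not depend on scaling, though the pair was chosen after its values were seen. It was 0.148, 0.0943 and 0.125 in vehicle at 20% O2, 1.01, 1.38 and 1.42 in vehicle at 1% O2, and 0.190, 0.218 and 0.187 with 32-134D. Thus IRF7 counts equalled or passed STAT2 counts only in the 3 hypoxic vehicle libraries.

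The 4 IFIT genes stand side by side on chromosome 10 and encode related proteins of the antiviral response to foreign RNA. Only IFIT2 (ENSG00000119922, chr10:89283694-89309276) was called. It was at 2.65, 1.10 and 0.882 CPM in vehicle at 20% O2, 5.12, 4.53 and 4.08 in vehicle at 1% O2, and 1.81, 1.99 and 1.92 with 32-134D. The hypoxic vehicle libraries were apart from the other groups, and replicate 1 at 20% O2 was well above its group. IFIT2 rose in hypoxia by 1.63 ± 0.31 on the log2 scale (FDR 0.000349; 2.24 without replicate 1 at 20% O2) and fell with 32-134D by 1.27 (SE 0.27, FDR 0.00114). Against vehicle at 20% O2 the 32-134D value was 0.36 ± 0.33 (FDR 0.553), and without replicate 1 at 20% O2 it was 1.03 (FDR 0.0226), a call. Of its exon bases 10.3% overlap other genes, among them LIPA on the opposite strand.

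None of its 3 neighbours was called. The hypoxia values were -0.84 ± 0.44 for IFIT1 (FDR 0.124), -0.97 ± 0.43 for IFIT3 (FDR 0.0728) and -0.45 ± 0.37 for IFIT5 (FDR 0.329), and the 32-134D values were 0.94 ± 0.40 (FDR 0.0652), 0.64 ± 0.41 (FDR 0.222) and -0.23 ± 0.36 (FDR 0.642), none past the threshold. These rested on 2 to 55 counts per library. As a description, the ratio of IFIT2 to IFIT3 counts was 3.70, 1.75 and 0.935 in vehicle at 20% O2, 12.9, 32.0 and 6.21 in vehicle at 1% O2, and 2.67, 3.93 and 2.47 with 32-134D. All 3 hypoxic vehicle ratios were above the rest, for a pair again chosen after the values were seen.

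None of the 4 membrane proteins that restrict viruses was called in any comparison by edgeR. IFITM3, the most abundant member, was at 212, 179 and 179 CPM in vehicle at 20% O2, 132, 157 and 157 in vehicle at 1% O2, and 168, 160 and 196 with 32-134D. The hypoxic vehicle libraries were again lowest, at -0.35 ± 0.10 on the log2 scale (FDR 0.00711), under the fold threshold, and the 32-134D value was 0.23 ± 0.10 (FDR 0.0653). IFITM2 gave -0.24 ± 0.09 in hypoxia (FDR 0.0391) and 0.26 ± 0.09 with 32-134D (FDR 0.0287), also under it. IFITM1, with 0 to 8 counts per library, shares 32.5% of its exon bases with IFITM2. BST2 (tetherin), which holds budding virus at the cell surface, had 4 to 24 counts per library and was called in no comparison.

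IFITM3 made up a large share of the summed level of the 37 members. The sum was 466 to 506 CPM in vehicle at 20% O2, 436 to 451 in vehicle at 1% O2 and 438 to 457 with 32-134D. Without IFITM3 it was 287 to 300, 291 to 304 and 261 to 281 CPM. The vehicle groups overlapped in this second sum and the 32-134D libraries lay below them, while single members moved in opposite directions within it.

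The dynamin-like GTPases and the oligoadenylate synthetases contributed 2 of the 4 members that fell in hypoxia. MX1 (ENSG00000157601, chr21:41420304-41459214), a GTPase that traps viral nucleocapsids, was at 1.86, 2.83 and 2.49 CPM in vehicle at 20% O2, 1.56, 0.896 and 1.07 in vehicle at 1% O2, and 2.21, 2.59 and 1.33 with 32-134D. The hypoxic libraries lay below those at 20% O2 but overlapped the 32-134D group, whose replicate 3 was its lowest. The log2 fold changes were -0.96 ± 0.30 (FDR 0.0129) in hypoxia and 0.78 ± 0.28 (FDR 0.0325) with 32-134D. The first call was lost without replicate 3 at 20% O2 (FDR 0.069), and the second without replicate 2 or 3 of hypoxic vehicle (FDR 0.115 and 0.0773) or replicate 1 or 2 of 32-134D (FDR 0.0657 and 0.143). MX2 had 0, 0 and 1 counts at 20% O2, 7, 1 and 1 in hypoxic vehicle and 3, 2 and 3 with 32-134D, too few for a fold.

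OAS3 (ENSG00000111331, chr12:112938352-112973249), which makes the short oligoadenylates that activate RNase L, was at 13.5, 18.7 and 15.9 CPM in vehicle at 20% O2, 8.83, 7.31 and 7.40 in vehicle at 1% O2, and 14.9, 13.9 and 8.96 with 32-134D. The hypoxic vehicle libraries were lowest, and replicate 3 of 32-134D lay only just above them. OAS3 fell in hypoxia by 1.00 on the log2 scale (SE 0.18, FDR 0.000225) and rose with 32-134D by 0.69 ± 0.17 (FDR 0.00439). OAS1 and OASL had 1 to 23 counts per library, with hypoxia values of -1.01 ± 0.48 (FDR 0.0931) and -0.58 ± 0.46 (FDR 0.308) and 32-134D values of 0.51 ± 0.47 (FDR 0.402) and 0.65 ± 0.41 (FDR 0.22).

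**Figure D4:**
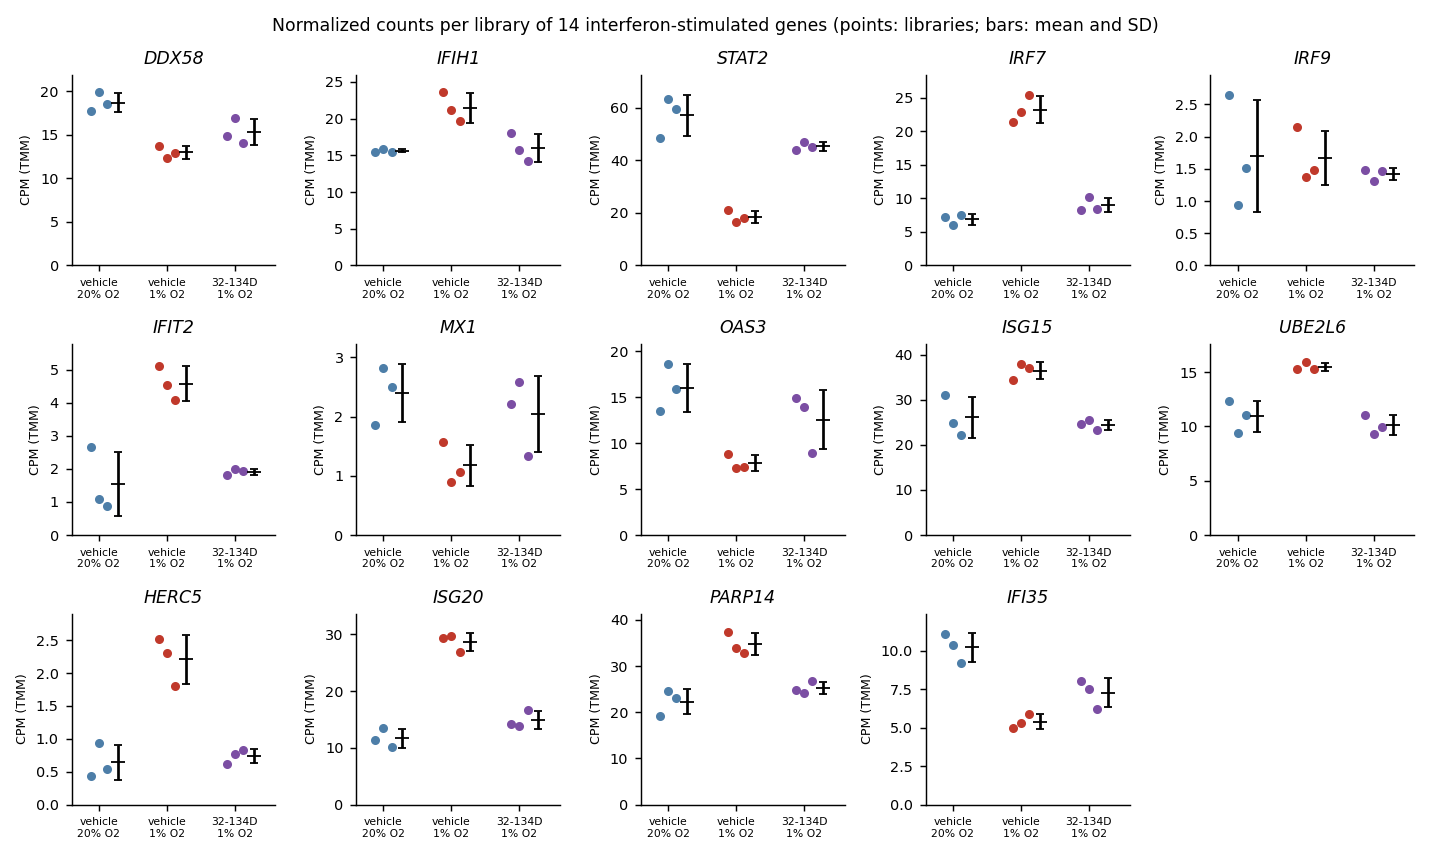
TMM-scaled CPM in each of the 9 libraries for the 14 members described in full, 1 panel per gene with its own axis from 0; points are libraries, the horizontal mark is the group mean and the bar its SD (n = 3). In IRF7, IFIT2, HERC5, ISG20 and PARP14 the 3 vehicle libraries at 1% O2 lie above both other groups, and in STAT2 and OAS3 below them.

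ISG15 is a ubiquitin-like tag, UBE2L6 and HERC5 attach it to proteins, USP18 removes it, and HERC6 is a relative of HERC5. ISG15 itself (ENSG00000187608, chr1:1001138-1014540) was at 31.2, 25.0 and 22.2 CPM in vehicle at 20% O2, 34.3, 38.0 and 37.1 in vehicle at 1% O2, and 24.6, 25.5 and 23.2 with 32-134D. The hypoxic vehicle libraries were above all others. The log2 values were 0.49 ± 0.11 (FDR 0.00197) in hypoxia and -0.58 ± 0.11 (FDR 0.000484) with 32-134D, folds of up to 1.49. The first passed the threshold without replicate 1 at 20% O2 (0.59), and the second without replicate 1 of hypoxic vehicle (-0.62) or replicate 2 of 32-134D (-0.61). UBE2L6 (ENSG00000156587, chr11:57551656-57568284), the conjugating enzyme for ISG15, was at 12.3, 9.42 and 11, then 15.3, 15.9 and 15.2, then 11.1, 9.26 and 9.97 CPM, again with hypoxic vehicle above both other groups. It gave 0.48 ± 0.12 in hypoxia (FDR 0.00314, under the fold threshold), and it fell by 0.61 with 32-134D (SE 0.11, FDR 0.000428), a fold of 1.53. With DESeq2 that fall was 0.55 on the log2 scale (adjusted p 4.1e-05), under the threshold, as it was without replicate 1 at 20% O2, replicate 3 of hypoxic vehicle or replicate 2 of 32-134D (0.55 to 0.56).

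HERC5 (ENSG00000138646, chr4:88457117-88506163), the main human ligase for ISG15, showed the largest rise of any member called in hypoxia. It was at 0.430, 0.942 and 0.547 CPM in vehicle at 20% O2, 2.52, 2.31 and 1.80 in vehicle at 1% O2, and 0.624, 0.774 and 0.823 with 32-134D. The hypoxic vehicle libraries were clear of the rest, although at 20% O2 the values rested on 6, 6 and 18 counts. HERC5 rose by 1.94 ± 0.30 on the log2 scale in hypoxia (FDR 5.99e-05) and fell by 1.59 with 32-134D (SE 0.26, FDR 0.000121). Its promoter, printed above, held 3 matches to the response element and the hexamer CACGTG, which contains ACGTG on both strands.

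HERC6, its neighbour on chromosome 4, gave -0.67 ± 0.33 in hypoxia (FDR 0.104) and -0.13 ± 0.32 with 32-134D (FDR 0.781). The ratio of HERC5 to HERC6 counts, a pair taken after the values were seen, was 0.286, 0.667 and 0.600 in vehicle at 20% O2, 3.17, 2.88 and 2.74 in vehicle at 1% O2, and 0.710, 1.10 and 2.0 with 32-134D. USP18, which removes ISG15 and damps receptor signalling, gave -0.35 ± 0.23 in hypoxia (FDR 0.216) and -0.14 ± 0.22 with 32-134D (FDR 0.632), and replicate 3 of 32-134D was at 2.70 CPM where the other 8 libraries were at 5.18 to 7.46.

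ISG20 (ENSG00000172183, chr15:88636153-88656483), an exonuclease that degrades single-stranded RNA, was at 11.4, 13.5 and 10.2 CPM in vehicle at 20% O2, 29.4, 29.7 and 26.9 in vehicle at 1% O2, and 14.2, 13.9 and 16.7 with 32-134D. All 3 groups were apart, with hypoxic vehicle highest. ISG20 rose by 1.33 ± 0.12 on the log2 scale in hypoxia (FDR 2.43e-07) and fell by 0.94 with 32-134D (SE 0.11, FDR 6.87e-06), and the value against vehicle at 20% O2 was 0.39 ± 0.12 (FDR 0.0562). SAMHD1, which destroys deoxynucleotides, lay within 22.9 to 28.5 CPM in all 9 libraries, with -0.01 ± 0.10 in hypoxia (FDR 0.924) and 0.03 ± 0.10 with 32-134D (FDR 0.862).

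RSAD2 (viperin), which makes a chain-terminating nucleotide, was called lower with 32-134D on very few counts. It had 2, 0 and 6 counts in vehicle at 20% O2, 5, 5 and 3 in vehicle at 1% O2, and 2, 0 and 0 with 32-134D. Pooled, the 13 counts against 2 gave a depth-scaled ratio of 6.42 (95% exact interval 1.45 to 58.6, counting error only). The FDR was 0.0484, and the call was lost under most other settings, for example DESeq2 (adjusted p 0.111), and when any 1 library was left out (FDR 0.0576 to 0.143) except replicate 2 at 20% O2 and replicate 1 of 32-134D.

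PARP9 and PARP14, ADP-ribosyltransferases that modulate STAT signalling, are near each other on chromosome 3 and differed. PARP14 (ENSG00000173193, chr3:122680618-122730840) was at 19.2, 24.6 and 23.1 CPM in vehicle at 20% O2, 37.4, 33.9 and 32.8 in vehicle at 1% O2, and 24.7, 24.3 and 26.8 with 32-134D. Hypoxic vehicle was apart from both other groups. PARP14 rose by 0.65 ± 0.10 in hypoxia (FDR 7.63e-05), a fold of 1.57 that dropped under 1.5 without replicate 1 at 20% O2 (log2 0.50), with total-count scaling (0.43), with a minimum of 10 counts per library (0.54) and with thinning to the smallest library (0.48), and the 32-134D value was -0.46 ± 0.10 (FDR 0.00126), under the fold threshold. PARP9 gave -0.26 ± 0.12 (FDR 0.0844) and 0.20 ± 0.12 (FDR 0.181). The ratio of PARP14 to PARP9 counts, also taken after the values were seen, was 1.35, 1.41 and 1.60 in vehicle at 20% O2, 2.63, 2.80 and 2.86 in vehicle at 1% O2, and 1.63, 1.67 and 1.95 with 32-134D.

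IFI35 (ENSG00000068079, chr17:43006725-43014456), a leucine zipper protein of the cytoplasm, was at 11.1, 10.4 and 9.21 CPM in vehicle at 20% O2, 4.96, 5.28 and 5.91 in vehicle at 1% O2, and 8.05, 7.51 and 6.22 with 32-134D. The 3 groups did not overlap, and the 32-134D libraries lay between the vehicle groups. IFI35 fell by 0.92 in hypoxia (SE 0.15, FDR 7.47e-05). The 32-134D values were 0.44 ± 0.14 against hypoxic vehicle (FDR 0.0183) and -0.48 ± 0.14 against vehicle at 20% O2 (FDR 0.0475), both under the fold threshold. IFI6, a small hydrophobic membrane protein, gave 0.09 ± 0.19 in hypoxia (FDR 0.722) and -0.45 ± 0.18 with 32-134D (FDR 0.0562), and IFI27, of the same family, gave 0.96 ± 0.49 (FDR 0.118) and -0.02 ± 0.40 (FDR 0.977) on 1 to 20 counts per library.

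The pathway upstream was followed in 56 further genes. Of the 21 interferon genes of types I, II and III, 20 had 0 counts in all 9 libraries and IFNK had 1 count in replicate 2 of 32-134D, so no interferon transcript was detectable at this depth, where 3 counts amount to 0.0795 to 0.471 CPM per library. Of the 32 pathway genes tested, 10 were called higher and 3 lower in hypoxia, 4 higher and 6 lower with 32-134D against hypoxic vehicle, and 3 higher and 0 lower with 32-134D against vehicle at 20% O2. These were 31.3% and 9.38% in hypoxia (19.5% and 20.3% of all genes), 12.5% and 18.8% with 32-134D (16.2% and 13.7%), and 9.38% and 0% against vehicle at 20% O2 (3.0% and 0.516%). With total-count scaling the first split was 9 higher and 5 lower and the second 6 higher and 4 lower. For the last 0, 3 of the 32 had an unadjusted p below 0.05 on the lower side, and DESeq2 also called 0. IFNAR2, MAVS and TICAM1 are named below after their values were seen, the others by a fixed rule of size.

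IRF1, a transcription factor that acts on many of the same promoters, was at 11, 9.11 and 11.6, then 41.8, 37.1 and 35.4, then 19, 18.5 and 20.0 CPM in vehicle at 20% O2, vehicle at 1% O2 and 32-134D at 1% O2. The groups did not overlap, and IRF1 rose by 1.82 ± 0.11 in hypoxia (FDR 3.52e-09), fell by 0.99 with 32-134D (SE 0.10, FDR 1.35e-06) and was higher by 0.83 ± 0.11 with 32-134D than in vehicle at 20% O2 (FDR 0.00021). IRF5 rose by 0.97 ± 0.11 in hypoxia (FDR 2.3e-06) and fell by 0.82 with 32-134D (SE 0.10, FDR 1.12e-05). IRF8 was at 2.73, 2.36 and 2.14 CPM in vehicle at 1% O2 and at 3.15, 3.30 and 6.31 with 32-134D, where replicate 3 stood well above its group. It was higher with 32-134D by 0.79 ± 0.25 (FDR 0.017), a call lost without that library (0.41, FDR 0.0597). Of the 5 such factors reported, 2 were thus higher and 0 lower in hypoxia, where 19.5% and 20.3% of all genes were. With 32-134D 1 was higher and 2 lower, where 16.2% and 13.7% of all genes were. These 5 are too few genes to set against the background.

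Of 9 receptor subunits and kinases, 3 were called higher and 1 lower in hypoxia, 33.3% and 11.1% beside 19.5% and 20.3% of all genes. These 9 are also too few to set against the background. IFNGR2, a subunit of the interferon gamma receptor, rose by 0.94 ± 0.07 (FDR 6.6e-08) and fell by 0.69 with 32-134D (SE 0.07, FDR 2.34e-06), a fall of less than 1.5-fold with total-count scaling (log2 -0.51). IFNLR1, of the type III receptor, rose by 0.86 ± 0.11 (FDR 6.64e-06) and IFNGR1 by 0.82 ± 0.08 (FDR 7.91e-07), with 32-134D values of -0.44 ± 0.10 and -0.57 ± 0.08 under the fold threshold. The IFNGR1 value passed it without replicate 3 of 32-134D (-0.62) or replicate 1 of hypoxic vehicle. IFNAR2, of the type I receptor, fell by 0.68 (SE 0.15, FDR 0.00137) and rose with 32-134D by 0.74 ± 0.14 (FDR 0.000628), but 83.2% of its exon bases overlap AP000295.1 on the same strand or IL10RB-DT on the opposite one, so its counts are uncertain.

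Of 12 tested sensors and adaptors, 3 were called higher and 2 lower in hypoxia, 25.0% and 16.7%, shares near those of all genes (19.5% and 20.3%). TLR3, a receptor for double-stranded RNA in endosomes, was at 0.860, 0.628 and 1.28 CPM in vehicle at 20% O2, 3.50, 2.73 and 2.49 in vehicle at 1% O2, and 0.936, 1.04 and 1.42 with 32-134D. It rose by 1.49 ± 0.27 in hypoxia (FDR 0.000273) and fell by 1.39 with 32-134D (SE 0.25, FDR 0.000275). TBK1, the kinase that activates IRF3 and IRF7, rose by 1.15 ± 0.09 (FDR 8.63e-08), with a 32-134D value of -0.54 ± 0.09 under the fold threshold. It was higher by 0.62 ± 0.09 with 32-134D than in vehicle at 20% O2 (FDR 0.000687), a call lost in 2 fits with 1 library left out. Its relative IKBKE fell by 1.34 (SE 0.14, FDR 8.66e-07) and rose with 32-134D by 0.92 ± 0.13 (FDR 4.44e-05). TICAM1, the adaptor of TLR3, rose in hypoxia by 0.73 ± 0.07 (FDR 5.77e-07, 0.51 with total-count scaling, under the fold threshold). With 32-134D it fell by 0.61 (SE 0.07, FDR 4.75e-06), a call lost in 4 fits with 1 library left out and 7 other settings. MAVS, the adaptor of DDX58 and IFIH1, fell in hypoxia by 0.87 (SE 0.10, FDR 4.08e-06). It rose with 32-134D by 0.62 ± 0.10 (FDR 0.000136), a call lost in 2 fits with 1 library left out.

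Of 6 negative regulators, SOCS1 and SOCS3, which block JAK kinases, were called higher in hypoxia, 33.3% beside 19.5% of all genes. These 6 are again too few genes to set against the background. SOCS3 was at 2.72, 1.10 and 1.73 CPM in vehicle at 20% O2, 8.69, 9.43 and 8.43 in vehicle at 1% O2, and 4.14, 4.11 and 3.84 with 32-134D, with the 3 groups apart. It rose by 2.19 ± 0.21 in hypoxia (FDR 3.82e-07), fell by 1.13 with 32-134D (SE 0.17, FDR 7.92e-05) and was higher by 1.06 ± 0.21 with 32-134D than in vehicle at 20% O2 (FDR 0.00547), a call lost without replicate 3 at 20% O2 (0.92, FDR 0.0638) and with thinning to the smallest library (0.62). SOCS1 rose by 0.81 ± 0.22 in hypoxia (FDR 0.00623) and had a 32-134D value of -0.54 ± 0.20 (FDR 0.0404), which passed the fold threshold without replicate 1 of 32-134D (-0.67).

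**Figure D5:**
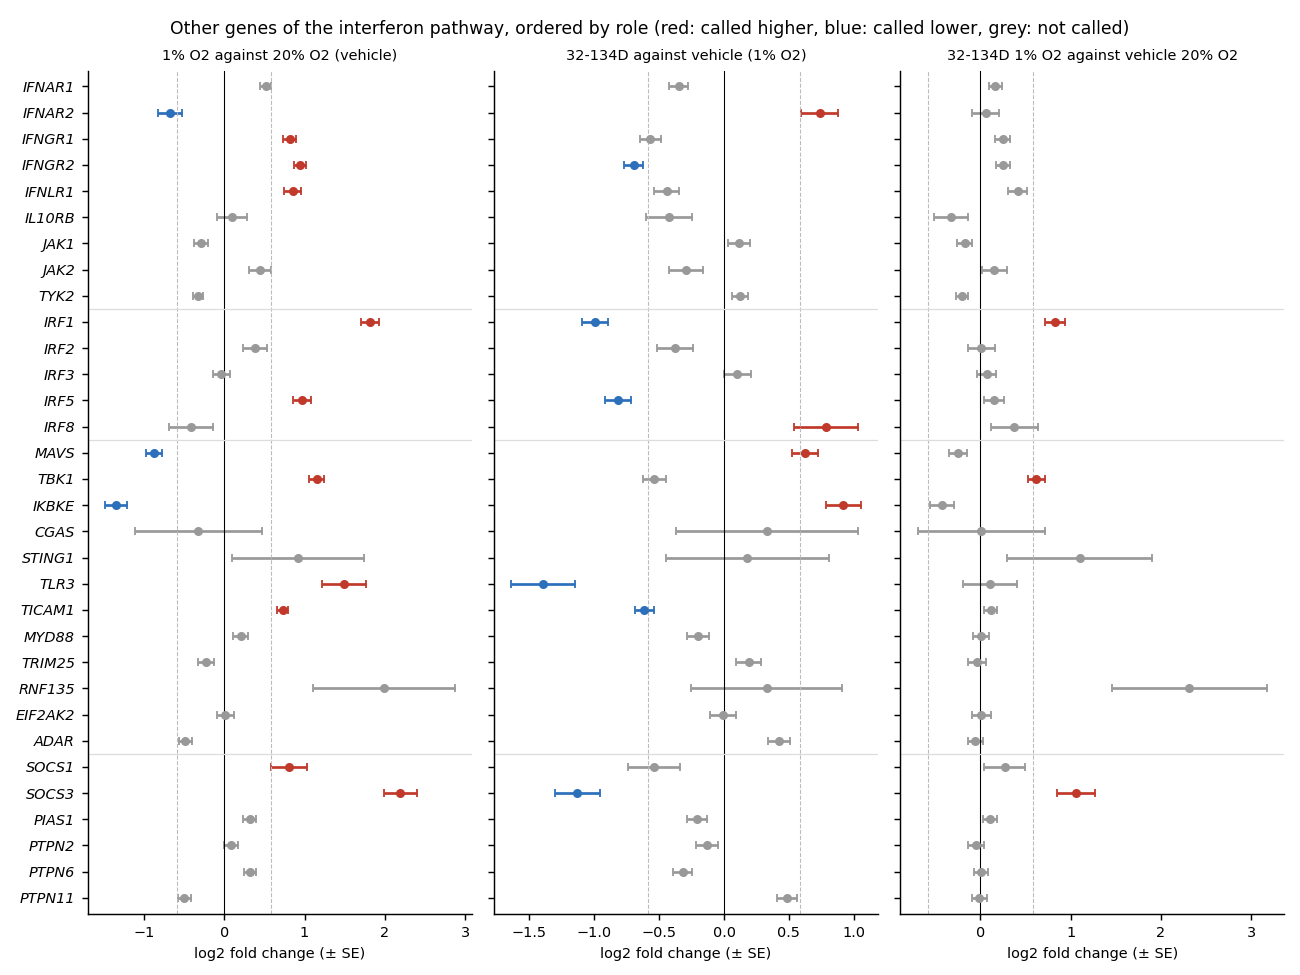
Log2 fold change with its standard error for 32 tested genes of the interferon pathway outside the member list, in 3 panels for the 3 comparisons, grouped into receptors and kinases, transcription factors, sensors and adaptors, and negative regulators; red points were called higher, blue lower and grey not called. SOCS3 (2.19) and IKBKE (-1.34) mark the ends of the called values in the first panel, and IRF1, TBK1 and SOCS3 are the called points of the third.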

How the data were processed

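RNA of Hep3B cells was sequenced in 9 libraries, 3 per group. The authors deposited raw counts per gene in 1 table, and the processing notes and methods name STAR and featureCounts, GRCh38 and Ensembl release 100; versions and the strand setting are not given in the sources used here. All columns matched a sample's label (0 unmapped). Genes with a summed count of 10 or more were kept, scaled by TMM and tested with edgeR 4.0.16 (R 4.3.3, glmQLFit and glmQLFTest, group means only, 1 fit of all 9 libraries), with Benjamini-Hochberg adjustment over 22672 genes. The thresholds (FDR 0.05, fold change 1.5) follow the study, which used DESeq2; DESeq2 1.42.0 was an alternative. The code was tested on simulated data. Exon lengths and positions came from GENCODE 29 and promoters from RefSeq on GRCh38.p14; proteins were not analysed here. The members and lists were chosen with earlier results of these data known. Values in every library were given for members called in any comparison at a mean normalized count of at least 50, and for DDX58, IFIH1, STAT2, IRF9, IRF7 and ISG15; of the pathway genes, up to 3 per role by the size of a called change, plus IRF1. An item of the planned pathway list is not reported here. The libraries held 6013980 to 40549699 counts; intervals and floors (3 counts) cover counting error only. The 11 alternatives covered tool, scaling, filters, thresholds, groups, depth, blocking by replicate number and single left-out libraries.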

Additional observations from a re-analysis of the deposited data

How the results depend on the processing

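No member changed sign under any alternative run in a comparison in which it was called, and of the values for the lists 247 stayed and 32 moved. Depth limits members with few counts, and the cause of each change below was not tested except where the threshold or filter itself removes or adds genes. The members' median log2 fold change in hypoxia (-0.23) was -0.29 with DESeq2, -0.44 with total library size, -0.27 with median-of-ratios factors and -0.35 with at least 10 counts in every library. The median over all genes (0.00100) moved too, to -0.05, -0.21, -0.04 and -0.01 in these settings. With 1 library left out, the members' median in hypoxia ran from -0.28 to -0.18. It ran from -0.17 to 0.10 with 32-134D (0.10 without its replicate 3) and from -0.20 to -0.0474 for 32-134D against vehicle at 20% O2. With total library size, members lower in hypoxia were 8 and members higher with 32-134D 5, and pathway genes lower in hypoxia 5. With at least 10 counts in every library, members higher in hypoxia and lower with 32-134D were 2 each, and pathway genes were 5 lower in hypoxia and 3 lower with 32-134D. Without a fold threshold, members in hypoxia were 8 higher and 7 lower, members with 32-134D 5 higher, and 1 member was lower than in vehicle at 20% O2; pathway genes were 7 lower in hypoxia, 14 lower with 32-134D, and 5 higher than in vehicle at 20% O2. Above a fold of 2, members were 2 lower in hypoxia and 1 higher with 32-134D; pathway genes were 4 higher and 1 lower in hypoxia, 0 higher and 2 lower with 32-134D, and 1 higher than in vehicle at 20% O2.

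With 1 library left out, members in hypoxia ran from 5 to 5 higher and 4 to 5 lower, with 32-134D from 2 to 3 higher and 4 to 6 lower, and against vehicle at 20% O2 from 0 to 1 higher and 0 to 0 lower. Pathway genes ran from 10 to 11 higher and 3 to 5 lower in hypoxia (5 without replicate 1 at 20% O2), 3 to 4 and 5 to 8 with 32-134D, and 2 to 3 and 0 to 0 against vehicle at 20% O2. Single members kept their side of the threshold in 264 of their hypoxia values (8 weaker, 8 stronger) and in 242 of those for 32-134D (30 weaker, 8 stronger), and 2 became calls against vehicle at 20% O2; those that weakened were mostly RSAD2, UBE2L6, MX1 and PARP14. The replicate numbers did not pair the samples: same-numbered libraries of different groups correlated at -0.0868 to 0.0365 in their deviations from the group means (9 pairs, 15948 genes), and differently numbered ones at -0.0910 to 0.108. With the replicate number as a block, members were 5 higher and 4 lower in hypoxia, 3 and 5 with 32-134D (RSAD2 lost, adjusted p 0.0793) and 0 and 0 against vehicle at 20% O2.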
